A study of Homo sapiens with 47 samples.

Results

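The genes described here are the protein-coding genes of 3 symbol groups, KCN (potassium channels), SCN (sodium channels) and CACN (calcium channels), that reached a mean of 1 TPM (transcript abundance scaled for gene length and sequencing depth) in at least 1 of 16 conditions. They are 90 of 142 protein-coding genes with these symbols, among 58051 genes listed in each of 47 RNA sequencing libraries. Because TPM chose them, their levels are descriptions. KCNJ2 (1.01 TPM at its highest), KCNH8 (1.01 TPM) and KCNE2 (1.02 TPM) lay just inside the limit, while KCNS1 (0.93 TPM), KCNJ14 (0.853 TPM) and KCNH6 (0.807 TPM) lay just outside. In all, 23 genes met the limit in every condition, 56 in some and 11 in only 1, and 25 reached 10 TPM somewhere. The name voltage-gated covers only some of them: KCNJ genes encode inward rectifiers and KCNK genes background (2-pore) potassium channels, which lack a voltage sensor, KCNN genes encode channels opened by calcium, SCNN1 genes encode the epithelial sodium channel, and SCNM1 encodes a splicing factor rather than a channel.

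All libraries came from the H9 (WA09) human embryonic stem cell line. Undifferentiated cells (t0) were compared with cells kept for 36 h in N2B27 medium without vitamin A, supplemented with the WNT agonist CHIR-99021, rhFGF2, the retinoic acid receptor inverse agonist AGN193109 and the kinase inhibitor Y-27632, a stage termed neuromesodermal progenitor-like (NMP-like). The same medium was kept through passages P1 to P10, in which the study describes epithelial pre-neural progenitors (PNPs) and later mesenchymal neural crest (NC) cells, and at P5 and P8 a selective TrypLE step split cultures into an epithelial (EPI) and a mesenchymal (MES) fraction. Each group held 3 differentiations except P9, which had 2, so that 35 libraries sampled whole cultures and 12 sampled fractions, all from a single line.

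A voltage-gated channel is built around pore-forming alpha subunits (KCNA, KCNQ and related genes for potassium, SCN1A and its relatives for sodium, CACNA1 genes for calcium), which open when the membrane potential changes. Auxiliary subunits such as KCNAB, KCNIP, KCNMB, CACNA2D, CACNB and CACNG proteins set how many channels reach the membrane and how fast they open and close. Such channels are best known for action potentials and transmitter release in neurons and for contraction in muscle, but dividing cells hold them too.

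Library size ranged from 13029491 to 64082859 expected counts (median 47292229). Most stage marker lists moved with the labels: summed over 6 pluripotency genes, TPM went from 4369 at t0 to 893 at P5 and 13.8 at P9, the NMP list peaked at 1663 at 36 h, and the NC list of 11 genes reached 1267 at P9 from 32.1 at t0. The epithelial PNP list did not separate the stages up to P5, at 676 TPM at t0, 680 TPM at 36 h and 754 TPM at P5. The neuron list was at 218.3 TPM at t0, 267.5 TPM at 36 h, 357.9 TPM at P1 and 223.9 TPM at P5. At t0, 36 h and P5 the Schwann cell or melanocyte list was at 207.4, 211.1 and 70.1 TPM. The endothelium list was at 48.9, 58.4 and 4.0 TPM. Some libraries stood apart within their groups, mostly replicate 1. At 36 h its NMP sum was 557 TPM against 2329 and 2104 in replicates 2 and 3, at P1 its pluripotency sum was 2715 TPM against 596 and 552, and at P8 the latter was 1009 TPM against 279.7 and 181.3. The NC list at P7 was at 902 TPM in replicate 3 and at 196 and 238 TPM in replicates 1 and 2. In P10 replicate 1 the pluripotency sum was 458 TPM against 17.7 and 10.2 in replicates 2 and 3, the epithelial list was at 770 against 77.0 and 148, and the NC list at 285 against 975 and 1234, so tests that use P10 are given with and without it, and the other comparisons of whole cultures also without replicate 1. In bulk samples such as these, fewer cells of a type and less RNA per cell cannot be told apart.

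Channel transcripts were most abundant in undifferentiated cells and least abundant at P3 to P5. Summed TPM over the 90 genes was 584 ± 16 (SD, n = 3) at t0, 421 ± 99 (SD, n = 3) at 36 h, 304 ± 13 (SD, n = 3) at P5, 350 ± 37 (SD, n = 3) at P8 and 492 ± 19 (SD, n = 2) at P9. At P10 it was 472 ± 150 (SD, n = 3), with a range from 316.4 to 616.4. Of the 90 genes, 34 (37.8%) had their highest mean at t0, where 21.5% of all protein-coding genes that met the same TPM limit had theirs. A further 11 (12.2% against 8.05%) were highest at 36 h, 10 (11.1% against 17.1%) at P9.

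**Figure D1:**
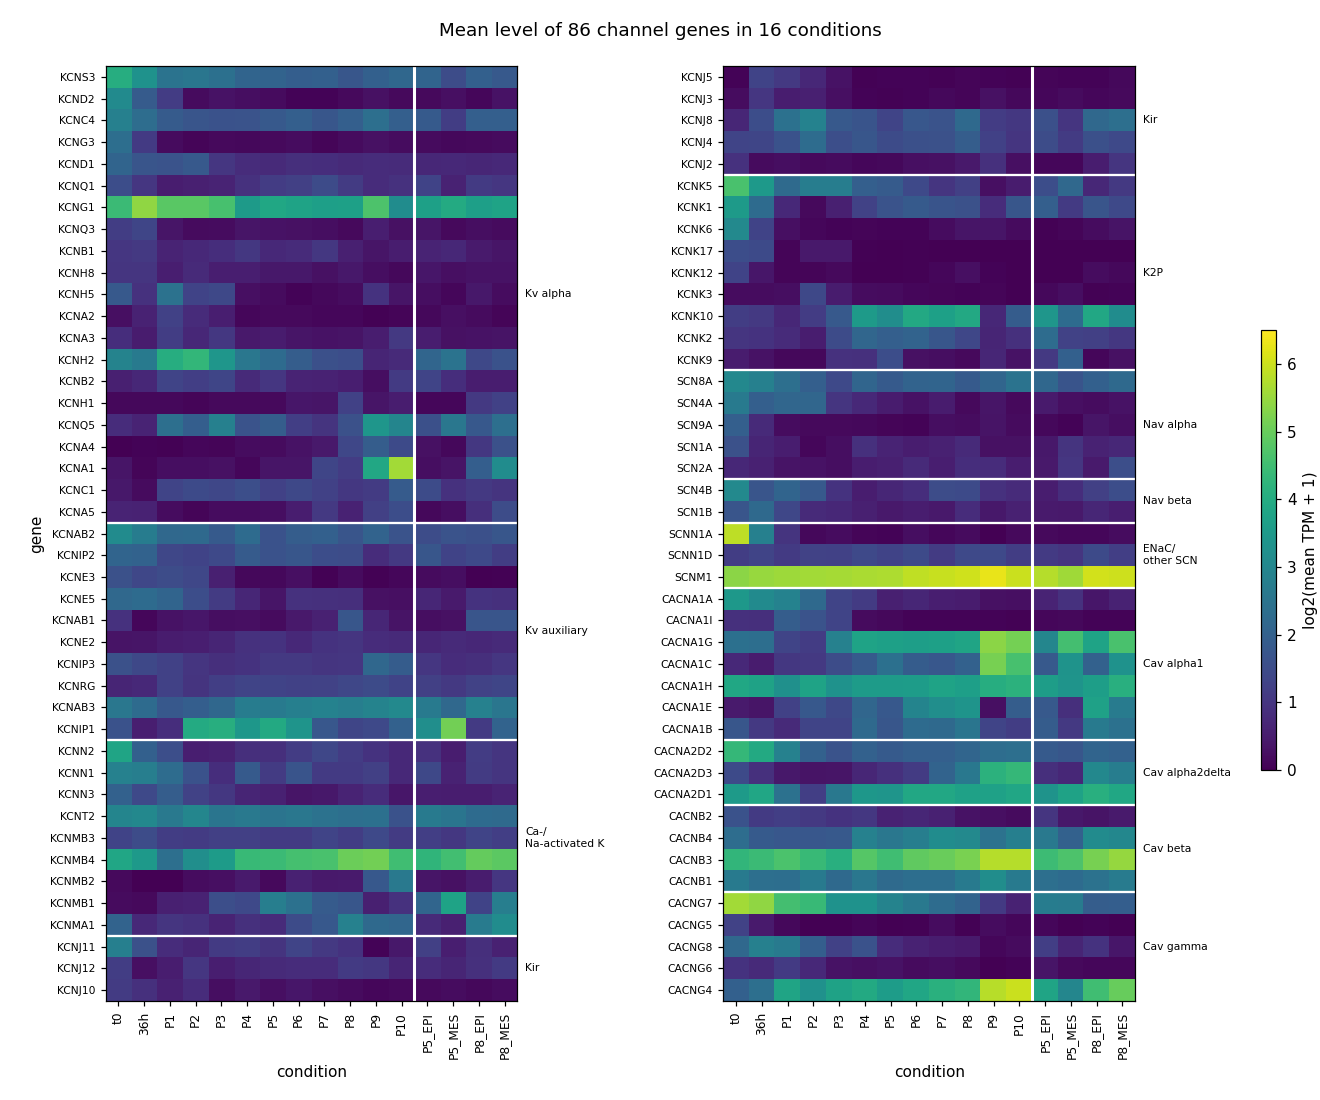
Mean level of 86 of the 90 channel genes (vertical axis, grouped by subunit family and ordered by the condition of their highest mean) in the 16 conditions (horizontal axis), as log2(mean TPM + 1) in color. In most families the genes at the top are brightest at t0, where 34 of the 90 have their highest mean.

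The most abundant of the 90 were a mixed group. SCNM1, the splicing factor, had the highest mean over the 47 libraries (54.5 TPM), followed by CACNB3 (29.2 TPM), a cytoplasmic beta subunit of high-voltage-activated calcium channels. KCNMB4 (19.7 TPM) encodes a beta subunit of the large-conductance calcium-activated potassium (BK) channel, and CACNG4 (18.3 TPM) and CACNG7 (11.9 TPM) belong to the gamma family, several of whose members act on AMPA-type glutamate receptors. KCNG1 (17.7 TPM) encodes a modifier subunit that forms channels only together with other Kv subunits. CACNA1G (13.1 TPM) and CACNA1H (12.1 TPM) encode pores of low-voltage-activated T-type calcium channels, CACNA2D1 (10.7 TPM) an alpha2delta subunit, KCNIP1 (7.79 TPM) a calcium-binding partner of Kv channels of the KCND family, and KCNK10 (6.68 TPM) a background potassium channel. The leading genes of the inward rectifiers and sodium channel beta subunits were lower: KCNJ8 (2.57 TPM), the pore of an ATP-sensitive potassium channel, and SCN4B (1.76 TPM).

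The families followed different courses. The 24 Kv alpha genes summed to 165 TPM at t0, 41.3 TPM at P8, 79.2 TPM at P9 and 89.2 TPM at P10. The 9 K2P genes summed to 48 TPM at t0, 6.46 TPM at P1 (2.94 to 12.69 TPM, highest in replicate 1), 19.9 TPM at P8 and 3.21 TPM at P9. The 6 Nav alpha genes went from 25.8 TPM at t0 to 9.02 TPM at P5 and 9.54 TPM at P10. The 7 Cav alpha1 genes summed to 32.3 TPM at t0, 22.4 TPM at P1, 42.5 TPM at P8 and 93.3 TPM at P9. Of the P9 sum, CACNA1C and CACNA1G made up most, whereas CACNA1E was at 0.06 and 0.36 TPM there, so that the calcium channel pores did not share one course. The 4 Cav beta genes were at 29.7 TPM at t0 and 66.7 TPM at P9, while the 5 Cav gamma genes were at 56.2 TPM at t0, 18.5 TPM at P5 and 62.9 TPM at P10. The t0 and P10 sums of Cav gamma came mostly from different genes, CACNG7 at t0 (44.33, 48.96 and 48.47 TPM) and CACNG4 at P10 (13.88, 106.23 and 66.03 TPM). The library spread at P10 was wide for Cav gamma (15.57 to 106.5 TPM), Kv alpha (37.88 to 166.8 TPM) and Cav alpha1 (28.58 to 108.1 TPM).

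**Figure D2:**
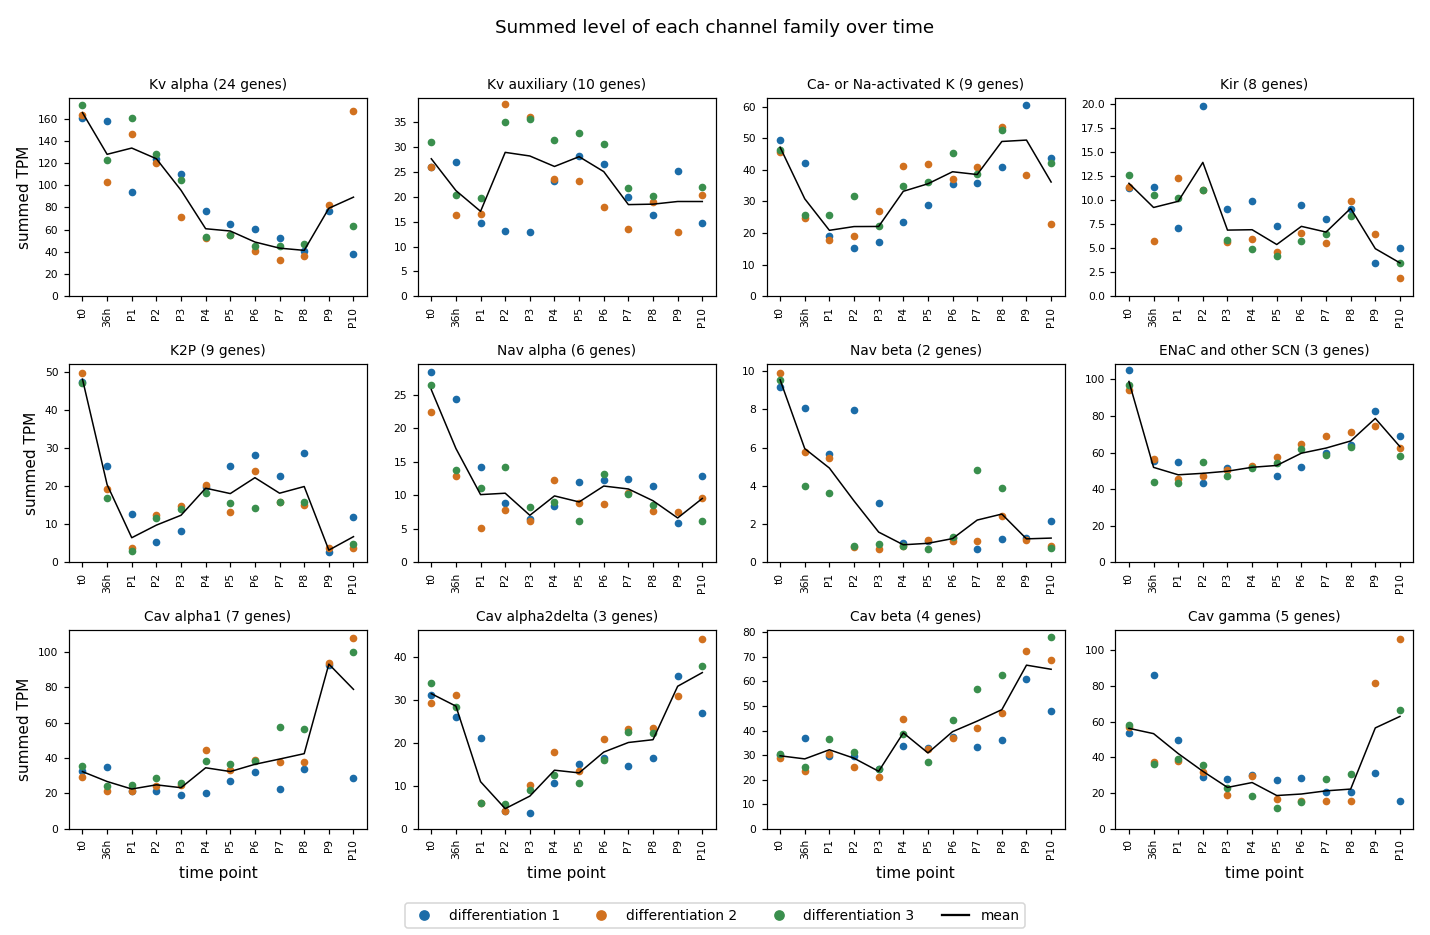
Summed TPM (y axis) of each of the 12 channel families in every whole-culture library (points, 1 color for each differentiation) by time point, with the mean as a line. Kv alpha is at 165 TPM at t0, 41.3 TPM at P8 and 79.2 TPM at P9, and Cav alpha1 reaches 93.3 TPM at P9.

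Within families, single genes had their own time courses over the early passages, given here as levels with no test. KCNIP1 was at 0.26, 24.7 and 19.11 TPM at P2 and 0.68, 24.17 and 22.66 TPM at P3, so that the first differentiation was low where the other two were high, and at P7 all 3 were at or below 3.77 TPM. CACNA2D1 was lowest at P1 and P2, with 9.11, 2.28 and 1.8 TPM and then 1.78, 0.83 and 1.34 TPM, and between 8.42 and 16.11 TPM at P10. KCNMB4 likewise was at 5.27, 3.38 and 3.93 TPM at P1 and at 22.21, 38.52 and 34.22 TPM at P8. CACNB3 was between 18.09 and 18.54 TPM at t0 and at 32.65, 58.36 and 69.37 TPM at P10. KCNJ8 had its highest single value, 14.62 TPM, in P2 replicate 1, against 2.5 and 1.86 TPM in the other replicates.

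Neighbouring stages and fractions were then tested, each fitted across all genes with a term for the differentiation. A gene counts as called when its false discovery rate (FDR, Benjamini-Hochberg) was under 1%, it changed 2-fold or more, and it averaged 100 normalized counts or more in the libraries set against each other. A gene that met the TPM limit only in the conditions compared had in effect been chosen by that contrast and is left out of the counts. All genes tested include noncoding genes and genes under the TPM limit, so shares and medians over them are not a matched background. The numbered differentiations are separate experiments on the same line. With the differentiation term, p-values measure the scatter left after mean differences between experiments are removed, estimated over all groups of a fit. Beyond that term, serial libraries of one differentiation were treated as independent.

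The first comparison asked what the step from pluripotency to the NMP-like stage did to channel genes. By edgeR's quasi-likelihood test, 0 of 77 channel genes were called at 36 h against t0, when 1.33% of all genes tested were called higher, 1.37% lower, and 3.46% of protein-coding genes under the same TPM limit in either direction. At an unadjusted p under 0.05, 12 of the 77 passed, 2 higher and 10 lower, against 26.1% of all genes tested. DESeq2 called 3 lower (background 5.18%), KCNJ11, KCNMA1 and KCNN2, named after their values were seen. KCNMA1, the BK channel pore, was at 3.32, 3.02 and 3.26 TPM at t0 and 0.86, 0.74 and 0.4 TPM at 36 h. KCNN2, a small-conductance calcium-activated channel, was at 15.4, 10.56 and 12.49 TPM and then at 4.91, 2.58 and 1.47 TPM, and KCNJ11, an ATP-sensitive channel pore, at 5.44, 6.36 and 6.31 TPM and then at 4.52, 1.18 and 0.41 TPM. In all 3 genes the groups did not overlap, a description of genes picked by their call, with no share over other genes counted. Without replicate 1, edgeR called 3 lower (background 5.31%). The median log2 change was -0.44 over the channel genes and 0.00 over all genes tested, which is not a matched set.

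A further 13 genes reached the TPM limit only at t0 or 36 h, and 2 of them passed all thresholds, which is given as a description. Of these, SCNN1A, the alpha subunit of the epithelial sodium channel, was at 58.71, 59.09 and 53.98 TPM at t0 and at 9.75, 7.12 and 1.51 TPM at 36 h. Every t0 library was far above every 36 h library. KCNG1 pointed the other way without being called, from 20.31, 19.4 and 22.42 TPM to 51.34, 39.22 and 36.03 TPM (log2 fold change 0.93, SE 0.25, edgeR adjusted p = 0.0141).

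Between 36 h and P5, the passage from which the fractions were first taken, channel genes changed in the largest number of any comparison. Of 89 channel genes tested, 20 (22.5%) were called, 5 higher and 15 lower at P5. Of all genes tested, 3.78% were called higher and 4.54% lower, and of protein-coding genes under the same TPM limit 11.2% were called in either direction. All 20 moved the same way in 3 of 3 differentiations. The calls come from these same differentiations and largely fix this, so it is not separate evidence. DESeq2 called 24 (background 13%), among them all 20. The median log2 change was -0.70 over the channel genes and -0.01 over all genes tested, which is not a matched set. At an unadjusted p of 0.05, 56 of 89 passed, as did 42.6% of all genes tested.

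**Figure D3:**
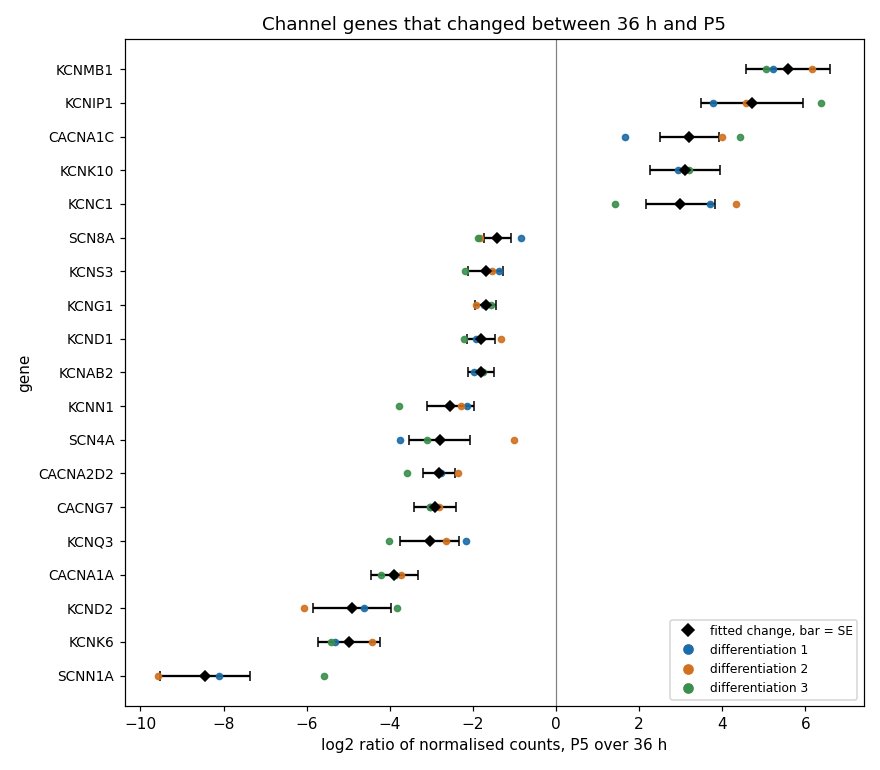
Log2 ratio of normalized counts at P5 over 36 h (x axis) of 19 of the 20 called channel genes, with the fitted change as a diamond (bar, SE) and the ratio in each differentiation as a colored point. The 5 genes to the right of 0 are KCNMB1, KCNIP1, CACNA1C, KCNK10 and KCNC1, and those to the left run from SCN8A (-1.41) to SCNN1A, whose fitted value rests on 3 counts at P5.

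The 5 genes that rose belong to 5 families. KCNMB1 (ENSG00000145936), a beta subunit of the BK channel best known from smooth muscle, was at 0.09, 0.08 and 0.18 TPM at 36 h and at 3.37, 8.23 and 6.19 TPM at P5 (log2 fold change 5.57, SE 1.02, edgeR adjusted p = 0.000201). KCNIP1 (ENSG00000182132) was at 0.75, 0.39 and 0.23 TPM and then at 11.61, 10.19 and 21.39 TPM (4.71, SE 1.22, adjusted p = 0.00474). In both genes every P5 library was many times above every 36 h library. CACNA1C (ENSG00000151067), the pore of the L-type calcium channel, was at 0.56, 0.37 and 0.3 TPM and then at 1.34, 4.45 and 6.91 TPM (3.20, SE 0.71, adjusted p = 0.0013). KCNK10 (ENSG00000100433), a background potassium channel of the TREK group, was at 2.07, 0.88 and 0.39 TPM and then at 14.48, 6.06 and 4.01 TPM (3.09, SE 0.84, adjusted p = 0.00675, and 0.0218 without the replicate block, where it was not called). In KCNK10 the first differentiation was highest at both times, and in CACNA1C the third was highest at P5. Without replicate 1 the log2 fold change was 4.28 for CACNA1C and 5.51 for KCNIP1. KCNC1, a fast delayed rectifier, went from 0.14, 0.05 and 0.26 TPM to 2.07, 1.36 and 0.77 TPM (2.99, SE 0.84, adjusted p = 0.00822).

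Subunits that assemble into one channel had different courses. Beside KCNMB1, the BK pore gene KCNMA1 was at 0.79, 0.6 and 0.83 TPM at P5, and the other BK beta gene KCNMB4 was at 13.63, 25.12 and 22.67 TPM, with 14.27, 8.82 and 8.51 TPM at 36 h (log2 fold change 0.99, SE 0.43, edgeR adjusted p = 0.0828), and it was called higher without replicate 1 (1.48, adjusted p = 0.00085). Beside KCNIP1, the pore gene KCND2 of its partner channels fell from 2.7, 3.25 and 2.08 TPM to 0.21, 0.05 and 0.16 TPM (-4.91). KCND2 met the TPM limit in only 3 conditions, with its highest mean at t0, so the limit favoured its call as lower. Among pores of separate calcium channels, the L-type CACNA1C rose while the P/Q-type CACNA1A fell. Of skeletal and cardiac muscle genes, MYOD1, MYOG, MYH6, MYH7 and TTN were under 0.1 TPM in every P5 library, and that list of 12 genes, which holds no smooth muscle markers, summed to 19.8 TPM at P5 and 111.8 TPM at 36 h. The NC list summed to 110.2 TPM at 36 h (30.72, 58.15 and 241.7 TPM by library) and 355.6 TPM at P5 (229.05, 297.73 and 540.11 TPM). Its part in these changes was not tested.

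KCNMB1 and KCNIP1 are also neighbours. On GRCh38, KCNMB1 (chr5:170374671-170389677, minus strand) lies within the span of KCNIP1 (chr5:170353487-170736632, plus strand) in the GENCODE 29 annotation, and no exon base is shared. CACNA1C is at chr12:1970786-2697950 (plus strand) and KCNK10 at chr14:88180103-88326907 (minus strand). The 250 bases upstream of the RefSeq start (GRCh38.p14) are printed for these 4 genes because they had the largest rises among the called genes, at chr12:2052737-2052986 (plus) for CACNA1C, which is inside the longer GENCODE span, chr14:88326913-88327162 (minus) for KCNK10, chr5:170353237-170353486 (plus) for KCNIP1 and chr5:170389368-170389617 (minus) for KCNMB1. Each is written 5′ to 3′ on the gene's strand, and capitals mark matches to the AP-2 motif GCCNNNGGC.
CACNA1C: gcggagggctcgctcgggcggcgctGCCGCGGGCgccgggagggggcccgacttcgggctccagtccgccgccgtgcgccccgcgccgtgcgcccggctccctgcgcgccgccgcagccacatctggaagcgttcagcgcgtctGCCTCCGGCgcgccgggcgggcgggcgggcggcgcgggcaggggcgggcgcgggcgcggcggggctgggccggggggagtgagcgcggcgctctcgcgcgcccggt
KCNK10: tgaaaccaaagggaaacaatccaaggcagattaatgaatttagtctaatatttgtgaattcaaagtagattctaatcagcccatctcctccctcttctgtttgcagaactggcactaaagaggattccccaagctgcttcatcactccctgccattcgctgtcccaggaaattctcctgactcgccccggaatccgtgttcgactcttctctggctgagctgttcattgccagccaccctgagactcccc
KCNIP1: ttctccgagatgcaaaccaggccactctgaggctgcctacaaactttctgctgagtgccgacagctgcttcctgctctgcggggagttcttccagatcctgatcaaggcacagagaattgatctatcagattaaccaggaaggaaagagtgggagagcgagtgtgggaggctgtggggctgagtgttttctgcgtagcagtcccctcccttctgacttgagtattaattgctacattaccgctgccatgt
KCNMB1: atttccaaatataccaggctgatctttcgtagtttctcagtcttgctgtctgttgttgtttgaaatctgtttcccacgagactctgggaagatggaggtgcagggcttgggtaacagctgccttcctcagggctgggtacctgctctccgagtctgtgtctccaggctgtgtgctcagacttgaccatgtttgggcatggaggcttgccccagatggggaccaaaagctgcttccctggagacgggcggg

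The CACNA1C window differed from the other windows in composition, with 85.6% G or C and 51 CG dinucleotides, against 48.0% and 5 for KCNK10, 52.0% and 6 for KCNIP1 and 54.0% and 5 for KCNMB1. The medians over 27305 RefSeq promoters were 58% and 11. The motifs searched, on both strands, were GCCNNNGGC (AP-2, in 19.7% of all promoters), CTTTGAT (TCF/LEF, 2.28%), ACAAAG (SOX, 13.7%) and CAGGTG (an E-box bound by SNAI factors, 17.5%). CACNA1C held the AP-2 letters at bases 26 and 145 of the window, and the other 3 windows held none of these motifs. A match is a description of letters, and its absence says only that these letters are not in the window. RefSeq promoters matched 64 of the 90 channel genes, so no share over the genes is given.

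The 15 genes that fell were spread over pores and auxiliary subunits. SCNN1A (ENSG00000111319, chr12:6346843-6377730, minus strand) fell furthest, from 9.75, 7.12 and 1.51 TPM at 36 h to 0.02, 0 and 0.09 TPM at P5. With 467, 328 and 87 expected counts against 2, 0 and 1, its normalized level was 323-fold lower, with a 95% counting interval from 110 to 1571. The exons of SCNN1A share 7.18% of their bases with LTBR on the opposite strand. SCNN1A met the TPM limit only at t0 and 36 h. The limit thus favoured its call as lower, and its values are a description. CACNA1A, the P/Q-type calcium channel pore, fell from 11.52, 5.66 and 5.7 TPM to 0.67, 0.41 and 0.4 TPM (log2 fold change -3.89, SE 0.57, edgeR adjusted p = 1.83e-05), and CACNA2D2, an alpha2delta subunit, fell from 16.05, 13.01 and 14.11 TPM to 3.35, 2.91 and 1.45 TPM (-2.81, SE 0.38, adjusted p = 7.8e-06). CACNG7 fell from 65.47, 31.22 and 28.56 TPM to 10.44, 5.3 and 3.84 TPM (-2.91, SE 0.50, adjusted p = 0.000109). In each of these genes the 3 libraries of P5 lay below the 3 of 36 h, a description of genes already called.

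Among the potassium channel genes, KCNK6, a 2-pore channel of the TWIK group, fell from 2.09, 1.57 and 0.8 TPM to 0.05, 0.08 and 0.02 TPM (log2 fold change -4.99). KCNQ3, a Kv alpha gene, fell by 3.04 on the log2 scale, KCNN1 by 2.54, the cytoplasmic beta subunit gene KCNAB2 by 1.82 and KCND1 by 1.81. KCNK6 and KCNQ3 each met the TPM limit in only 2 conditions, with their highest means at t0 and 36 h respectively. The limit thus favoured their calls as lower. KCNG1 fell from 51.34, 39.22 and 36.03 TPM to 16.52, 11.84 and 12.62 TPM (-1.70), and the related modifier KCNS3 from 8.47, 8.78 and 9.6 TPM to 3.61, 3.6 and 2.3 TPM (-1.69). Both sodium channel pores that were called fell as well, SCN4A, the skeletal muscle channel, by 2.80 and SCN8A, a neuronal channel, by 1.41. KCND1, KCNS3 and SCN8A were named after their values were seen. Of the 15 genes, 12 had their highest mean at t0, 2 at 36 h and 1 elsewhere. An early peak is in part built into a call of lower at P5, and no share over other genes called lower is given.

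CACNA1A, CACNA2D2, KCNAB2, KCNG1, KCNK6 and SCNN1A were called in all 10 settings that were run, including each omission of a differentiation. For KCNK6 and SCNN1A the TPM limit favoured these calls. Without replicate 1 there were 21 calls (background 12.2%), and KCNC1, KCNN1 and SCN4A were not among them. Without replicate 2 the number of calls was 7 (0 higher, 7 lower), and without replicate 3 it was 8 (1 higher, KCNMB1, and 7 lower). The calls over protein-coding genes under the same limit dropped as well, to 4.81% and 5.86%. KCNIP1, for example, had a log2 fold change of 4.59 (adjusted p = 0.0683) without replicate 2 and 4.17 (adjusted p = 0.128) without replicate 3.

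The genes of 3 gamma subunits lie in a row on chromosome 19, CACNG7 (chr19:53909335-53943941), CACNG8 (chr19:53963040-53990215) and CACNG6 (chr19:53992288-54012669), all on the plus strand. At P5 against 36 h their log2 fold changes were -2.91, -2.01 (edgeR adjusted p = 0.0137) and -1.65 (adjusted p = 0.111), and of these edgeR called the fall of CACNG7. DESeq2 also called CACNG8 lower (-2.04, adjusted p = 0.00211), as did edgeR without replicate 1 (-2.01, adjusted p = 0.00802). At P9 and P10 against P8, CACNG7 had a log2 fold change of -1.95 (adjusted p = 0.00866, mean of 93.1 normalized counts, under the minimum) and CACNG8 of -1.72 (adjusted p = 0.0494). Without P10 replicate 1 these were -2.19 and -2.52. CACNG6 averaged 1.66 normalized counts there, too few for a fold change. CACNG8 and CACNG6 were named after their values were seen, for their position.

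Further passaging from P5 to P8 was followed by no call. By edgeR 0 of 89 channel genes passed, and of all genes tested 0.0046% were called higher and 0.0046% lower (0.0137% of protein-coding genes under the same limit). At an unadjusted p under 0.05 there were 20 (14 higher and 6 lower, against 13.3% of all genes), and DESeq2 called 3 higher (background 1.01%), KCNMA1, KCNH1 and CACNA2D3, named after their values were seen. Without replicate 1, edgeR called 2 higher (background 0.61%). The BK pore KCNMA1 was at 5.54, 6.22 and 7.01 TPM at P8, above each of the P5 libraries, and had a log2 fold change of 3.25 (edgeR adjusted p = 0.0434). For CACNA2D3, an alpha2delta subunit, the values were 0.55, 1.18 and 0.84 TPM at P5 and 0.7, 6.28 and 8.36 TPM at P8, so that the first differentiation overlapped the P5 range. KCNH1, a Kv alpha gene of the ether-a-go-go group, was at 0.06, 0.16 and 0.12 TPM and then at 0.4, 2.48 and 1.25 TPM. KCNH1 met the TPM limit only in whole cultures and fractions of P8. The limit thus favoured its call and its place among the 3, and its values are a description.

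The last time point comparison set P9 and P10 against P8. Here 2 of 89 channel genes were called, 1 higher and 1 lower, with a background of 0.772% higher and 0.474% lower over all genes and 1.75% of protein-coding genes under the same limit in either direction. CACNA1C rose, from 1.04, 1.97 and 6.1 TPM at P8 to 46.35 and 23.69 TPM at P9 and 2.43, 34.83 and 33.52 TPM at P10 (log2 fold change 3.95, SE 0.68, edgeR adjusted p = 0.0018). KCNK10 fell from 19.98, 12.44 and 10.28 TPM at P8 to 0.6 and 0.69 TPM at P9 and 7.82, 0.21 and 0.08 TPM at P10 (-3.89, SE 0.74, adjusted p = 0.00327). In both genes P10 replicate 1 lay nearest to P8. At an unadjusted p under 0.05 there were 31, against 26.2% of all genes. Both calls were lost without replicate 2 (0 calls, background 0%), without replicate 3 (0 calls, background 0%) and without the replicate block (0 calls, background 0.228%), whereas without replicate 1 there were 10 calls (background 5.9%).

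**Figure D4:**
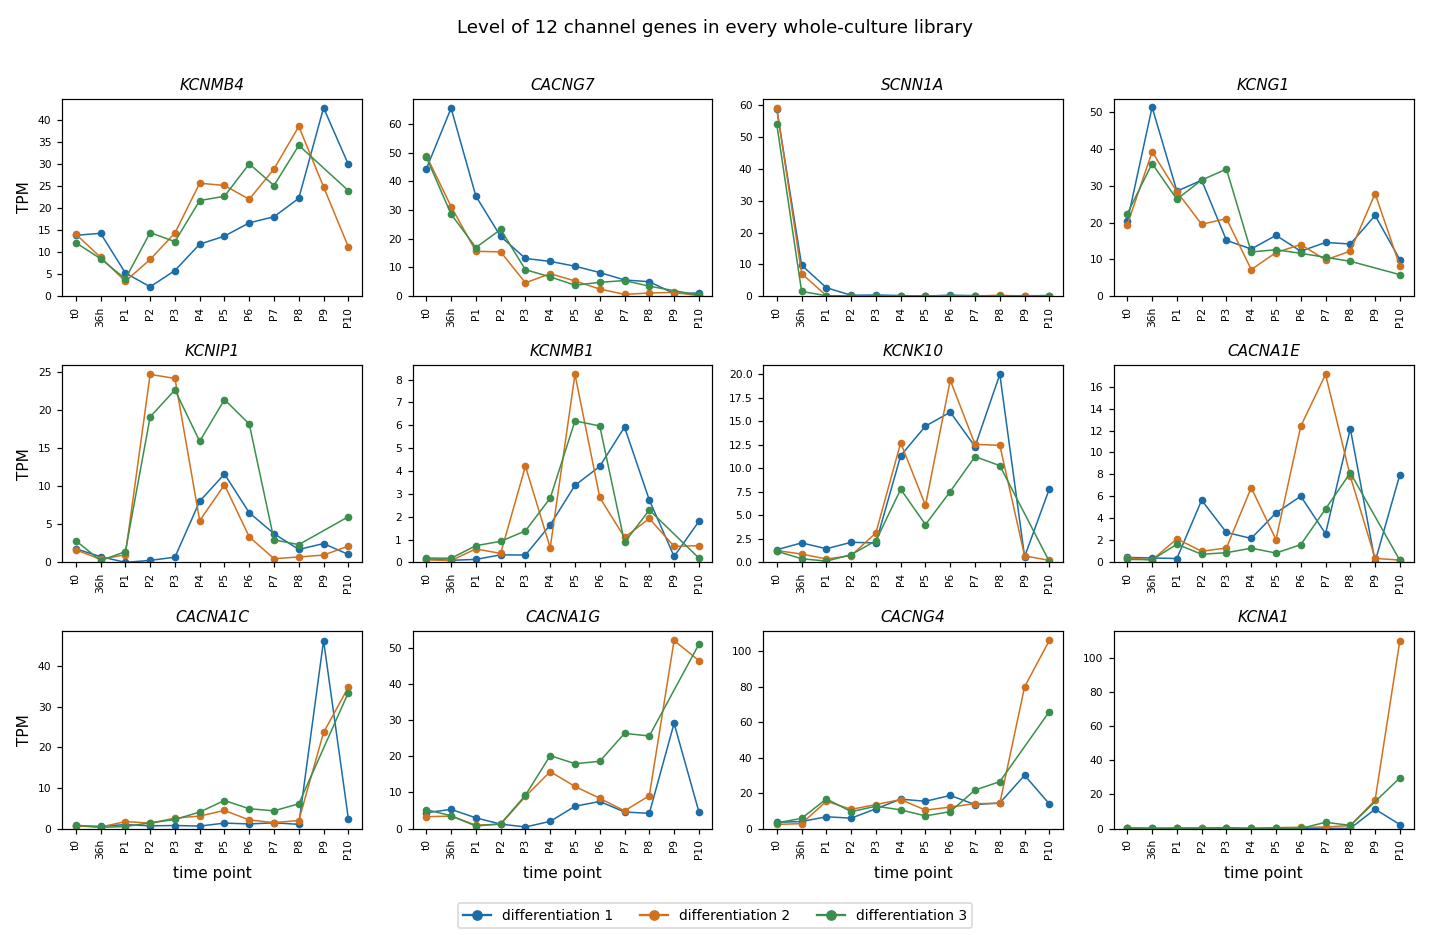
TPM (y axis, linear from 0) of 12 channel genes in every whole-culture library from t0 to P10, with points joined within each of the 3 differentiations. CACNA1C reaches 46.35 TPM at P9 while KCNK10 drops to 0.6 and 0.69 TPM, and P10 replicate 1 lies between P8 and the other P10 libraries for KCNK10 (7.82 TPM).

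Without P10 replicate 1, 9 channel genes were called (background 6.52%), 5 higher and 4 lower, which include both genes above. The genes besides those 2 were named after their values were seen. CACNA1C then had a log2 fold change of 4.16 and KCNK10 of -5.61. KCNA1, a Shaker-type delayed rectifier of axons, was at 0.09, 1.73 and 1.84 TPM at P8, 11.33 and 16.64 TPM at P9 and 2.35, 110.15 and 29.7 TPM at P10 (4.50). KCNMB2 (3.35), a BK beta subunit, and KCNIP3 (2.62) were the other K channel auxiliary genes that rose, and CACNG4 (1.96) went from 14.43, 14.22 and 26.48 TPM at P8 to 30.07 and 80.0 TPM at P9. KCNMB2 met the TPM limit only at P9, at P10 and in the mesenchymal fraction of P8, so the limit favoured its call. Among the lower genes were CACNA1E (-5.72), the R-type calcium channel pore, and CACNA1B (-2.32), the N-type pore. CACNA1E was at 12.17, 7.83 and 8.15 TPM at P8, 0.06 and 0.36 TPM at P9 and 7.99, 0.21 and 0.18 TPM at P10. DESeq2 on all libraries called 10, 7 higher and 3 lower (background 4.8%). The NC list summed to 494.2 TPM at P8, 1267 TPM at P9 and 831 TPM at P10 (285 to 1234 TPM), the epithelial list was at 658 TPM at P8, 143 TPM at P9 and 332 TPM at P10, and the neuron list was at 207.8 to 263.4 TPM at P8, 177.2 and 494.0 TPM at P9 and 330.5 to 460.4 TPM at P10. Their part in these changes was not tested.

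The T-type pore CACNA1G showed how much the differentiations varied late in culture. It was at 4.21, 9.08 and 25.64 TPM at P8, 29.14 and 52.08 TPM at P9 and 4.67, 46.52 and 51.02 TPM at P10. P10 replicate 1 lay within the P8 range, and the other P9 and P10 libraries lay above it. SCNM1 varied far less, between 34.02 and 79.97 TPM over all libraries.

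The fractions asked which channel genes marked the mesenchymal cells within a passage. At P5, edgeR called 0 of 83 channel genes and 0% of all genes in each direction, and 31 channel genes passed an unadjusted p of 0.05 (11 higher and 20 lower in the mesenchymal fraction, against 25.9% of all genes). This fit used a replicate term shared by P5 and P8, which pairs the fractions of one culture only in part. Its 0% thus does not show that the fractions were alike. With a block for each passage, chosen after seeing the data, 2.05% of protein-coding genes under the same TPM limit were called. The paper also reported genes that differed between these fractions, with DESeq2. DESeq2 called 9 (background 4.49%), 5 higher and 4 lower. The 5 higher, named after their values were seen as are the lower ones, were CACNA1C, CACNA1G, KCNIP1, KCNMB1 and KCNQ5. Of these, 3 had also risen between 36 h and P5. That comparison used other libraries of the same numbered differentiations, so it is not independent of this one.

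Of these genes, KCNIP1 was at 3.27, 7.02 and 14.44 TPM in the epithelial and 31.65, 29.05 and 40.65 TPM in the mesenchymal fraction (log2 fold change 2.10, SE 0.53, edgeR adjusted p = 0.0476). KCNMB1 was at 1.31, 4.69 and 3.94 TPM against 11.7, 16.84 and 9.68 TPM (1.98, SE 0.64, adjusted p = 0.0955). The 2 neighbours on chromosome 5 thus had their highest mean of the 16 conditions in the same fraction. CACNA1G was at 1.92, 7.16 and 11.56 TPM against 20.07, 21.58 and 25.9 TPM (2.23, adjusted p = 0.0549), and CACNA1C at 0.32, 2.69 and 4.5 TPM against 6.64, 10.92 and 10.02 TPM (2.43, SE 0.70, adjusted p = 0.0688). In these genes, picked by their DESeq2 call, every mesenchymal library lay above every epithelial one, with no share over other genes counted. KCNQ5, a Kv alpha gene, was at 0.37, 1.35 and 4.35 TPM against 2.08, 4.07 and 8.66 TPM (1.63, adjusted p = 0.0593), higher in 3 of 3 differentiations although the ranges overlap. The NC list summed to 148 to 373 TPM in the epithelial and 520 to 716 TPM in the mesenchymal libraries, and its part in the difference was not tested.

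**Figure D5:**
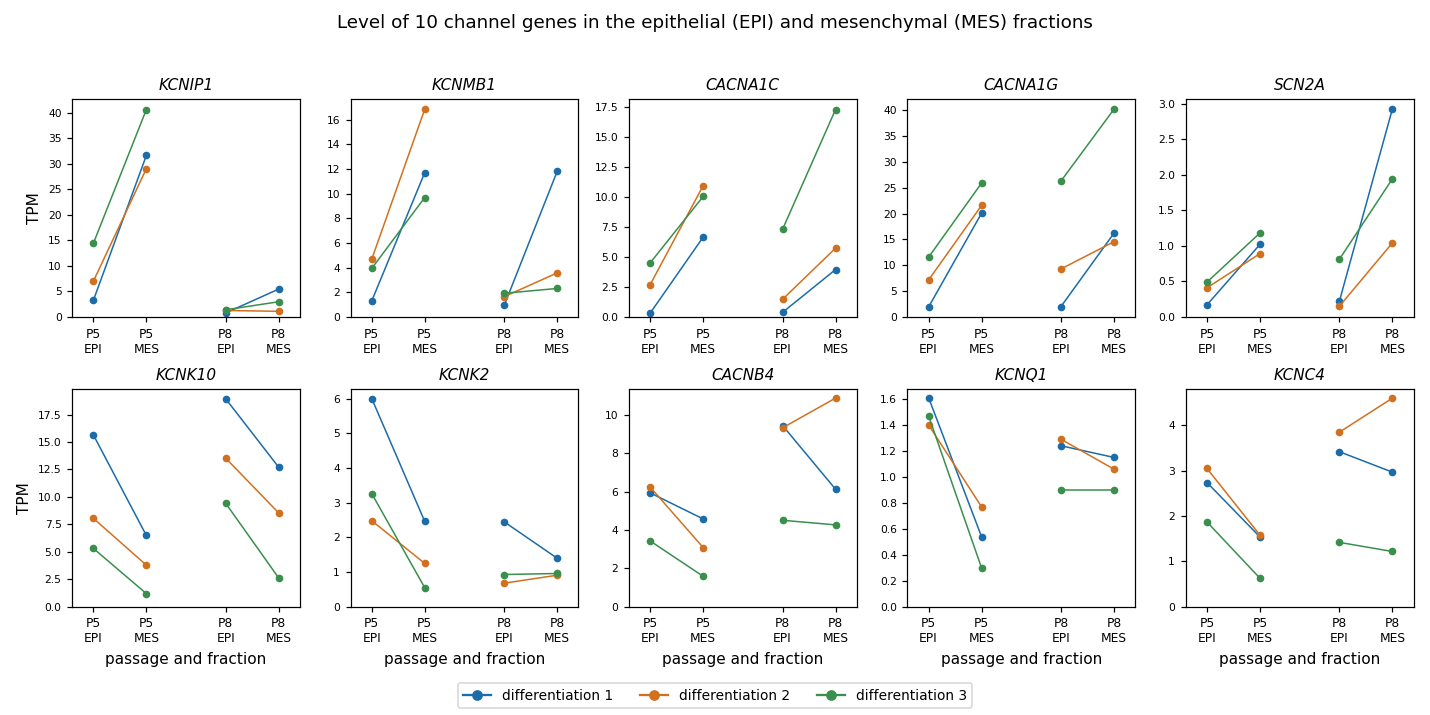
TPM (y axis, linear from 0) of 10 channel genes in the epithelial (EPI) and mesenchymal (MES) fractions at P5 and P8, with a line joining both fractions of each of the 3 differentiations. At P5 the lines of KCNIP1, KCNMB1, CACNA1C and CACNA1G slope up towards the mesenchymal fraction and that of KCNK10 slopes down.

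Among the genes lower in the mesenchymal fraction by DESeq2, KCNK10 was at 15.64, 8.05 and 5.31 TPM in the epithelial and 6.49, 3.79 and 1.2 TPM in the mesenchymal fraction at P5 (log2 fold change -1.89, SE 0.36, edgeR adjusted p = 0.0235), lower in 3 of 3 differentiations although the ranges overlap. KCNK2, its close relative, was at 6.0, 2.48 and 3.26 TPM against 2.46, 1.25 and 0.55 TPM. Another K2P gene, KCNK5, named after its values were seen, was at 1.57, 1.44 and 2.67 TPM against 3.29, 2.24 and 5.12 TPM (log2 fold change 0.90, edgeR adjusted p = 0.138). DESeq2 also called lower KCNC4, a fast-inactivating Kv channel, at 2.74, 3.05 and 1.87 TPM against 1.54, 1.58 and 0.63 TPM. In the same fractions the epithelial list summed to 951 and 343 TPM and the pluripotency list to 1126 and 469 TPM. The NMP list summed to 409.6 and 156.6 TPM and the neuron list to 256.9 and 139.5 TPM. The part of these lists in the differences was not tested. With a block for each passage separately, chosen after seeing the data, edgeR called 2 lower (background 2.05%), CACNA1B (-1.36) and KCNK2 (-1.43).

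At P8, the same edgeR fit called 0 of 82 channel genes and again 0% of all genes in each direction. At an unadjusted p of 0.05, 10 passed (7 higher and 3 lower, against 12.0% of all genes). DESeq2 called only SCN2A (background 0.349%). SCN2A, a neuronal sodium channel pore named after its values were seen, was at 0.22, 0.15 and 0.81 TPM in the epithelial and 2.92, 1.04 and 1.94 TPM in the mesenchymal fraction (log2 fold change 2.35, edgeR adjusted p = 0.259). SCN2A met the TPM limit only in the mesenchymal fractions of P5 and P8. The limit thus favoured its call, and its values are a description. Of the genes described at P5, CACNA1C had a log2 fold change of 2.17 at P8 (adjusted p = 0.323), KCNMB1 of 2.00 (adjusted p = 0.339) and KCNK10 of -1.30 (adjusted p = 0.285). At P8 KCNIP1 was at 0.79, 1.27 and 1.41 TPM in the epithelial and 5.47, 1.11 and 2.98 TPM in the mesenchymal fraction, and the ranges overlapped.

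Whether the fraction difference itself changed between P5 and P8 was tested as an interaction. EdgeR called 0 of 81 channel genes and 0% of all genes, with 9 at an unadjusted p under 0.05 (8 higher and 1 lower, against 6.1% of all genes), and DESeq2 called 0 (background 0.00712%). The 5 genes with the lowest adjusted p (0.816 each) were CACNB4 (0.51), CACNB2 (1.80), KCNC4 (0.83), KCNMB2 (1.56) and KCNMB4 (-0.53), as log2 differences between the passages. For CACNA1C the interaction was -0.26 with an SE of 0.93, and for KCNMB1 it was 0.03 with an SE of 0.87, so that only a change of the fraction difference several times as large as these errors could have passed.

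Genes that work with these channels were tested in the same fits, and their counts stand against the 11.2% of protein-coding genes called in either direction at P5 against 36 h and the 1.75% at P9 and P10 against P8. Among 12 further cation channels (11 tested), 1 fell between 36 h and P5, the proton channel HVCN1 (log2 fold change -2.70, edgeR adjusted p = 0.00578), and TPCN1, an endolysosomal channel, rose at P9 and P10 against P8 (1.53, adjusted p = 0.00791, and 1.64 without P10 replicate 1). Of 18 channel partners tested, 4 fell between 36 h and P5: NEDD4L (-1.89), a ubiquitin ligase that acts on epithelial sodium channels, FGF13 (-1.73), which binds sodium channels, DPP10 (-2.05), which binds KCND channels, and GEM (-1.64), a GTPase that acts on calcium channels. FGF13 (-1.94) and STAC (-2.85), which binds L-type channels, fell at P9 and P10, with -2.23 and -3.88 without P10 replicate 1. Without replicate 2 or 3, edgeR called none of TPCN1, FGF13 and STAC at P9 and P10, as it called 0% of protein-coding genes. Of 19 pumps and exchangers, 1 rose, SLC12A2 (1.11), and 3 fell between 36 h and P5, among them SLC8A2 (-4.59) and ATP2A3 (-2.00).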

How the data were processed

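Poly(A) RNA of 47 libraries was sequenced single-end. Per the labels, the authors trimmed reads with cutadapt 1.16, aligned them with STAR 2.5.2b to GRCh38 and quantified genes with RSEM 1.3.0. The deposited files give expected counts and TPM per gene. The annotation release and the strand setting are not given in the sources used here, so reads of overlapping genes and of near-identical copies (KCNJ12 and KCNJ18) may have been split uncertainly. Expected counts that were not whole were rounded. Depth was 13029491 to 64082859 counts per library, and it sets the precision of low genes. Intervals and floors (3 counts) cover counting error only. Symbols and positions came from GENCODE 29, which matched 57447 of 58051 gene IDs.

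The genes, families, lists and tests were chosen with earlier results of these data known. Whole cultures (35 libraries, 21750 genes) and fractions (12 libraries, 18885 genes) were fitted separately in edgeR 4.0.16 (R 4.3.3, limma 3.58.1) with TMM factors, the package's low-count filter, the quasi-likelihood test and a replicate block, since the series' design gives the numbered experiments as repeats that each ran through the time points and fractions (no P9 library of the third was analysed here). Same-numbered libraries correlated at a mean of 0.649 between the fractions at P5, 0.777 at P8 and 0.307 between P5 and P8. The means were 0.243 between P8 and P10, 0.109 between 36 h and P5, 0.010 between P8 and P9, and -0.01 between t0 and 36 h. Differently numbered libraries were at -0.316 between the fractions at P5 and -0.380 at P8. These values describe differences among the replicates of a group, not the expression levels themselves. P-values were adjusted over all genes tested. The script was tested on simulated data. DESeq2 1.42.0, other filters and thresholds, other sets of libraries and omission of each replicate were the alternatives. Libraries of a group differed by more than sampling noise, so none was counted as a duplicate.

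Genes named are, for each comparison, the called members moving the same way in every differentiation (at most 10 in each direction), the highest member of each family and the 12 highest of all, the 3 on either side of the TPM limit, the called genes of the further lists (at most 4) and the 5 lowest adjusted p of the interaction. Others are said to be named after their values were seen. Protein sequences were not analysed here. Some genes that the rule covers are not reported here, although they are in the counts and sums.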

Additional observations from a re-analysis of the deposited data

Results flagged for a closer look

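In 3 channel genes every differentiation moved one way between the fractions at P5 and the opposite way at P8, although the interaction test did not pass for any of them. They are 3.61% of the 83 channel genes tested, and 2.47% of 14072 protein-coding genes under the same TPM limit did so. KCNJ8 had log2 ratios of the mesenchymal to the epithelial fraction of -1.35, -0.47 and -1.18 at P5 and of 0.10, 0.23 and 0.44 at P8, a fitted difference of 1.38 (SE 0.71, edgeR adjusted p = 0.829). KCNJ12, which has a near-identical copy, KCNJ18, and is therefore uncertain, had ratios of -0.81, -0.09 and -0.33 and then of 0.04, 0.25 and 0.55, a difference of 0.68 (adjusted p = 0.831). CACNA2D2 had ratios of 0.04, 0.01 and 0.08 and then of -0.06, -0.27 and -0.01, a difference of -0.16 (adjusted p = 0.933), and its ratios at P5 were close to 0.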

How the results depend on the processing

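Without the replicate block, 19 genes (20 with it) were called at P5 against 36 h and 0 (2 with it) at P9 and P10 against P8. Leaving out this block changed no other count. DESeq2 called 3 at 36 h, 24 at P5 against 36 h, 3 at P8, 10 at P9 and P10, 9 between the fractions at P5 and 1 at P8. At an FDR under 5% the calls were 3, 30, 1, 11, 5 and 0 in the same order. Without the mean minimum they were 1 at 36 h, 32 at P5 and 5 at P9 and P10. With all 47 libraries in the fit they were 2 at 36 h and 5 at P9 and P10, and with only the compared groups 0 at P9 and P10. A TPM limit of 0.5 gave 2 at 36 h. These counts, from the FDR under 5% to the TPM limit of 0.5, come with no background share. They do not show whether channel genes were called more often than other genes. Without P10 replicate 1 there were 9 at P9 and P10. A block for each passage separately, chosen after seeing the data, gave 2 between the fractions at P5. Leaving out each differentiation in turn gave 0 to 3 calls at 36 h, 7 to 21 at P5, 0 to 2 at P8, 0 to 10 at P9 and P10 and 0 between the fractions. Leaving out replicate 1 or 2 leaves 1 library at P9, which is then assumed to vary like the other groups. For the called genes named by the rule, 138 of 172 values under an alternative stayed past the threshold, 34 were weaker and none turned direction. The cause of these shifts was not tested. DESeq2 size factors and the omission of the 3 smallest libraries moved no count by over 1.5 times. The biological coefficient of variation was 34.0% in whole cultures and 22.8% in fractions, with at most 3 differentiations a group.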
